A study of Homo sapiens with 21 samples.

Results

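The regions described here are the promoter-mark and JMJD6 regions of human chromosome 19 in 786-O, an established line of clear cell renal carcinoma cells. They were chosen by chromosome alone from the 6 peak lists of the series. An H3K4me3 region was kept when both H3K4me3 libraries had a peak in it, and a JMJD6 region when both sequencing batches contributed a peak to it. Chromosome 19 held 1149 of the 16218 H3K4me3 regions and 149 of the 1025 JMJD6 regions of the whole series. All ChIP libraries came from cells labelled JMJD6 wild type, with no treatment that sets them apart. JMJD6 was precipitated in 4 libraries, of which libraries 1 and 2 belong to sequencing batch 1 and libraries 3 and 4 to batch 2. H3K4me3 was precipitated in 2 libraries, both of batch 2. There is thus 1 condition, and the comparison is of chromosome 19 with the other 21 autosomes inside the same libraries. Whether the libraries came from separate cultures is not stated in the labels. The p-values therefore cover only these libraries, and the spread among them may be technical. Where the differences of all 4 JMJD6 libraries share a sign, the sign-flip p takes its smallest value, whatever their spread.

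H3K4me3, the trimethylated form of lysine 4 of histone H3, is laid down around the start sites of active and poised genes, and its peaks mark promoters. JMJD6 is an oxygenase of the JmjC family that uses iron and 2-oxoglutarate, and it is known to hydroxylate lysines of splicing factors. Chromosome 19 is known as the most gene-dense human chromosome, rich in GC, in CpG islands and in clusters of zinc finger genes. No sequence or gene annotation of hg19, the build of the peak lists, was used here, so regions are named by position and not by gene.

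The 4 JMJD6 lists held 139, 171, 140 and 160 peaks on chromosome 19 in libraries 1 to 4. These were 14.5%, 13.0%, 15.4% and 14.4% of the autosomal peaks of each library. The H3K4me3 lists held 1276 and 1286 peaks on the chromosome, 7.05% and 7.17% of their autosomal peaks. Library 2 had the longest JMJD6 list, with 1344 peaks in all against 923 to 1139 in the others, and the depth behind the lists is unknown. Of the 149 JMJD6 regions of chromosome 19, 107 had a peak in all 4 libraries (71.8%, 95% interval 63.9% to 78.9%), 25 in 3 and 17 in 2. On the other autosomes 66.2% of 855 regions had a peak in all 4 (62.9% to 69.4%). These intervals, and those below, are exact Clopper-Pearson intervals over regions; they cover counting error only, and neighbouring regions are not independent.

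Chromosome 19 carried the densest H3K4me3 of the 22 autosomes and the densest JMJD6, and the excess of JMJD6 was the larger. Between its first and last peak, 59.0 Mb apart, there were 19.5 H3K4me3 regions and 2.52 JMJD6 regions per Mb. The other autosomes had 5.32 and 0.313 per Mb. The ratio was therefore 3.66 for the mark and 8.05 for JMJD6. Chromosome 19 held 7.34% of the autosomal H3K4me3 regions (6.94% to 7.76%) and 14.8% of the autosomal JMJD6 regions (12.7% to 17.2%). It had more JMJD6 regions than any other autosome, also more than chromosome 1, which had 116 JMJD6 regions beside 1604 H3K4me3 regions. The next densest chromosomes for the mark were 17, 22 and 16, with 11.9, 11.7 and 7.73 H3K4me3 regions per Mb, and these carried 0.765, 0.657 and 0.611 JMJD6 regions per Mb. Against these 3 chromosomes together the ratios were 1.94 for the mark and 3.72 for JMJD6. The span was measured between peaks, since no chromosome length was used.

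**Figure D1:**
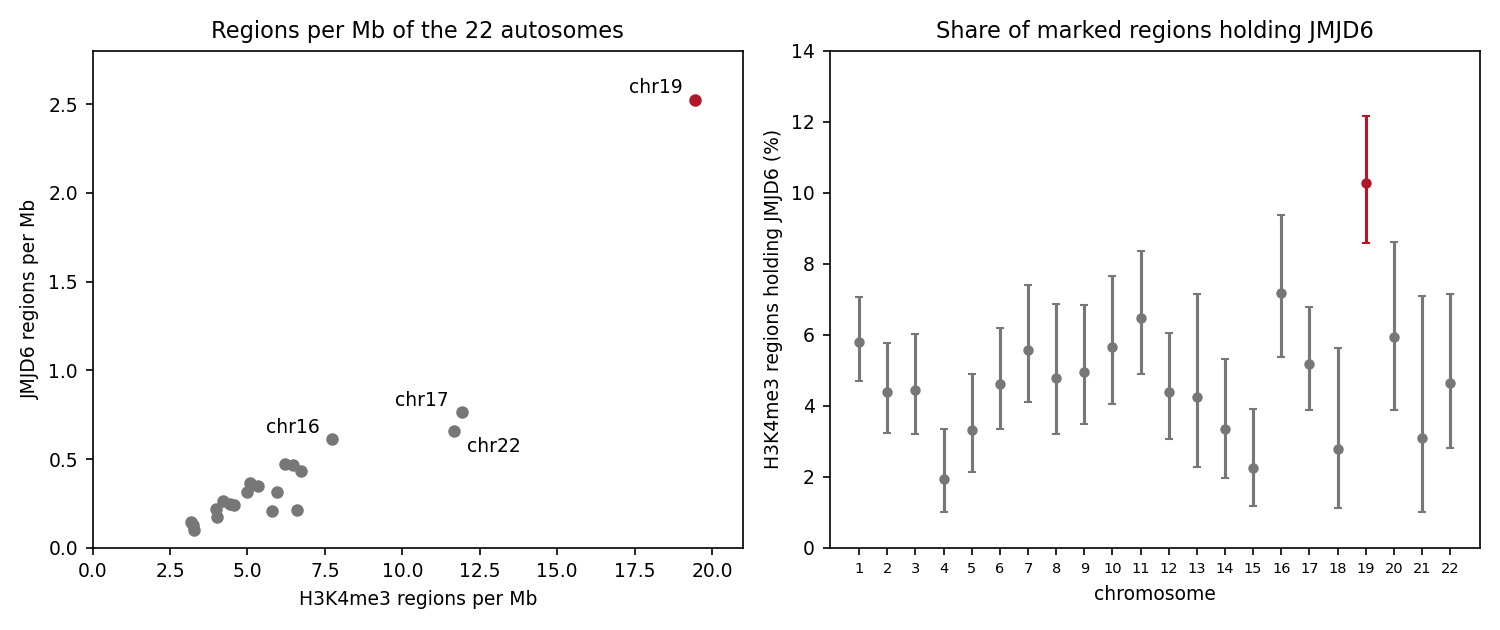
Left, JMJD6 regions per Mb against H3K4me3 regions per Mb, 1 point for each of the 22 autosomes. Right, the percentage of H3K4me3 regions that hold a JMJD6 region of both batches, with exact 95% intervals. Chromosome 19 (red) lies alone at 19.5 and 2.52 regions per Mb, and its share of 10.3% is the highest of the 22.

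A promoter-mark region of chromosome 19 held JMJD6 more often than one elsewhere. JMJD6 regions of both batches overlapped 118 of its 1149 H3K4me3 regions, 10.3% (8.57% to 12.2%). The background was 4.77% on the other autosomes, 692 of 14498 regions (4.43% to 5.13%), and 5.18% over all autosomes. Chromosome 16 came next with 7.18% (5.38% to 9.36%), and chromosome 4 had the lowest share, 1.93%. In library 1, 9.40% of the marked regions of chromosome 19 held a peak, against 4.33% elsewhere. Library 2 had 11.1% against 5.44%, library 3 had 9.05% against 4.22%, and library 4 had 10.97% against 5.25%. The share was higher on chromosome 19 in 4 of 4 libraries, and its lowest value there lay above the highest value elsewhere. The difference was 5.31 ± 0.428 percentage points (SD, n = 4), with p = 0.13 by an exact 2-sided sign-flip permutation test, the smallest p that 4 libraries allow (2 of 16 sign patterns). Within batch 1, regions with a peak in both libraries covered 8.53% of the marked regions of chromosome 19 and 3.98% of those elsewhere. Within batch 2 the shares were 8.44% and 3.77%. Most of the 118 marked regions held a single JMJD6 region, and 5 held a pair.

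The share of JMJD6 regions that lay on the mark had no common direction against the other autosomes, and it moved with the peaks that were counted. Of its 149 JMJD6 regions 117 lay on H3K4me3, 78.5% (71.1% to 84.8%), beside a background of 79.9% on the other autosomes. Per library, 77.0%, 74.9%, 75% and 79.4% of the JMJD6 peaks of chromosome 19 lay on a marked region, against 77.3%, 68.2%, 79.7% and 80.2% elsewhere. Library 2 was higher on chromosome 19 and the other libraries were lower, and the mean difference of 0.212 ± 4.71 percentage points (SD, n = 4) had p = 1 by the exact sign-flip permutation test. The difference of the region shares was −1.36 percentage points. With peaks of a −log10 q-value of at least 10 it was −7.55 points, with 74.1% of regions on the mark against 81.7%, and the share was higher on chromosome 19 in 0 of 4 libraries. Against chromosomes 17, 22 and 16 it was −4.33 points, again higher in 0 of 4, and without library 4 it was −5.80 points. Without a single 1 Mb window, described below, 84.8% of the JMJD6 regions of chromosome 19 lay on the mark, and the difference turned to 4.97 points, higher in 4 of 4. That window was taken out of chromosome 19 only and held 12 of its 32 regions off the mark, so leaving it out raises the share. The other autosomes kept their densest window, on chromosome 6, with 9 of 13 regions off the mark.

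**Figure D2:**
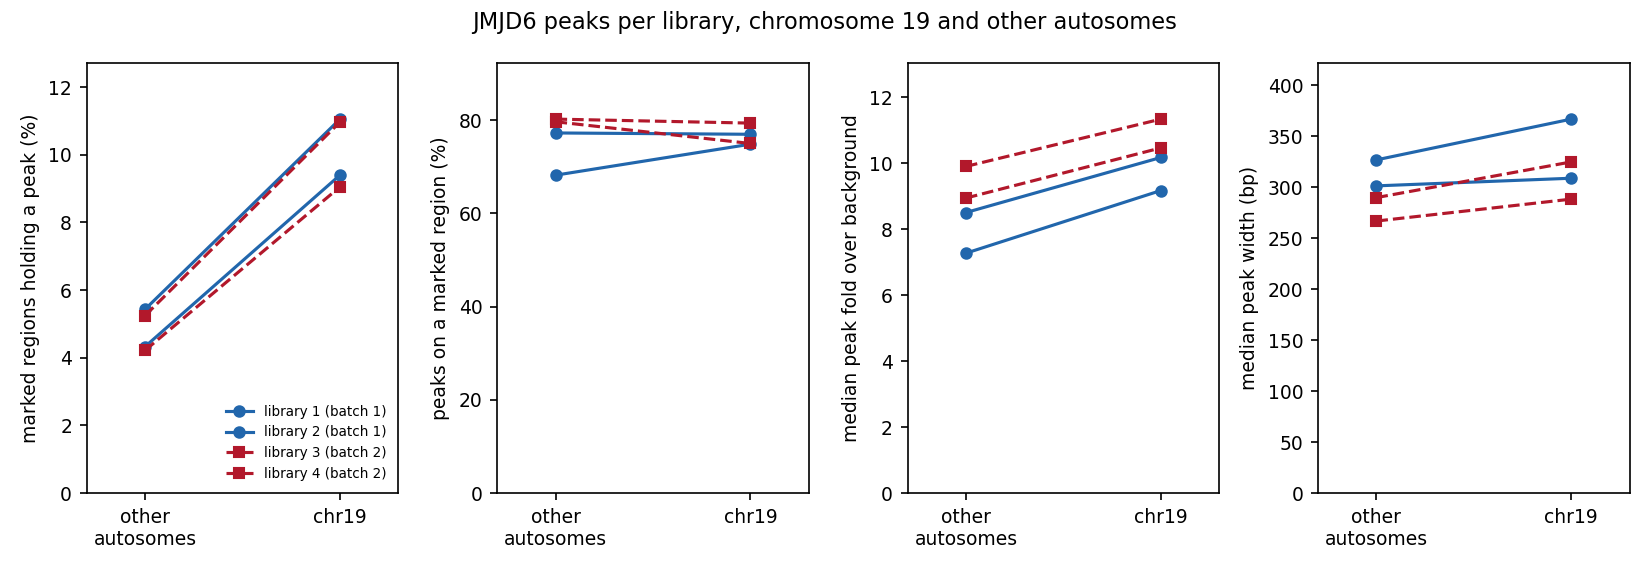
Values of the 4 JMJD6 libraries, each joined from the other autosomes to chromosome 19: the percentage of H3K4me3 regions that hold a peak, the percentage of peaks on an H3K4me3 region, the median fold and the median width in bp. Circles with solid lines are batch 1 and squares with broken lines batch 2. The first, the third and the fourth measure rise in all 4 libraries, and the share of peaks on the mark rises in library 2 only.

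JMJD6 peaks of chromosome 19 were higher in median fold and wider in the median, by a mean of 26.0 bp, than those pooled over the other autosomes. Single autosomes had higher medians. The fold, the authors' enrichment at a peak's summit over the peak caller's background, had a median of 10.2, 9.17, 11.3 and 10.5 in libraries 1 to 4, against 8.50, 7.27, 9.90 and 8.94 on the other autosomes. It was higher in 4 of 4 libraries, by 1.63 ± 0.203 (SD, n = 4; exact sign-flip permutation p = 0.13). Median peak widths were 309, 367, 288.5 and 325 bp, against 301.5, 327, 267 and 290 bp. The width difference of 26.0 ± 14.6 bp (SD, n = 4; exact sign-flip permutation p = 0.13) was smallest in library 1, at 7.50 bp. With peaks of a −log10 q-value of at least 10 it was 9.75 bp and positive in 3 of 4 libraries (exact sign-flip permutation p = 0.25). By the median over its regions, chromosome 19 ranked 4 of 22 in JMJD6 fold, where chromosome 6 had the highest at 14.4, and 5 of 22 in width, with 405 bp against 441 bp on chromosome 6. Among regions of both batches the mean fold was taken over the libraries with a peak, which were all 4 in 71.8% of regions on chromosome 19 and 66.2% elsewhere. This mean fold ran from 4.90 to 67.9 on chromosome 19, with a median of 10.96, beside 9.15 elsewhere. It reached 10 in 56.4% of the regions of chromosome 19 (48.0% to 64.5%) and in 43.4% of those elsewhere (40.04% to 46.8%). At a mean fold of at least 40 there were 10 of 149 regions and 40 of 855, with overlapping intervals. Over the 107 regions with a peak in every library, the folds of any 2 libraries had a Spearman rho between 0.646 (libraries 3 and 4) and 0.832 (libraries 1 and 2), a description across regions that share their libraries.

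The H3K4me3 of chromosome 19 differed the other way in width. Median peak widths were 1422 and 1398 bp in the 2 libraries, against 1526 and 1521 bp on the other autosomes. Its merged regions had a median width of 1642 bp, the narrowest of the 22 autosomes, and only 15.6% of them fell in the widest quartile of autosomal regions, those of 2505 bp or more. The median fold per library was 48.7 and 51.0, against 46.7 and 49.9. For merged regions it went the other way, 57.9 against 60.7, rank 18 of 22. With 2 libraries of 1 batch no test was made of these values.

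Marked regions that held JMJD6 were wider and stronger than those without it, on chromosome 19 and elsewhere. On chromosome 19 the median fold of the marked regions with JMJD6 was 58.8 in H3K4me3 library 1 and 69.6 in library 2, against 53.4 and 55.9 without. The median widths of their peaks were 1748.5 and 1693.5 bp, against 1525 and 1491 bp. On the other autosomes the ratio of median fold, with over without JMJD6, was 1.33 and 1.37 in the 2 libraries, where chromosome 19 had 1.10 and 1.25.

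The higher share on chromosome 19 was present in each of the 4 quartiles of width and each of the 4 quartiles of fold of the marked regions. In the narrowest quartile, under 1044 bp, 17 of 296 regions of chromosome 19 held JMJD6, 5.74% (3.38% to 9.04%), against 1.66% (1.27% to 2.14%) elsewhere. In the widest quartile it was 12.3% (7.87% to 18.02%) against 6.64% (5.86% to 7.49%). In the lowest quartile of fold, under 19.1, the shares were 4.12% (2.07% to 7.25%) and 1.40% (1.04% to 1.84%), and in the highest, from 85.8, they were 12.0% (8.21% to 16.8%) and 7.44% (6.61% to 8.33%), with intervals that just overlapped. Had each width and fold class of chromosome 19 held JMJD6 as often as on the other autosomes, the chromosome would have had 54.5 such regions, 4.75%, where it had 118. Not every joint class was higher: in the second quartile of width and the lowest of fold 0 of 35 regions of chromosome 19 held JMJD6, against 11 of 525 elsewhere, and 3 further joint classes, of 6, 3 and 1 regions, also had none.

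Crowding of the mark was set beside the share in the same way. A marked region of chromosome 19 had a median of 6 other marked regions within 100 kb of its centre, against 2 elsewhere. On the other autosomes the share holding JMJD6 was 3.68% for marked regions with no such neighbour and 5.92% (4.66% to 7.40%) for those with 8 or more. On chromosome 19 it was 13.4% (8.60% to 19.6%) with 1 to 2 neighbours, 8.33% (5.01% to 12.9%) with 3 to 4, and 10.7% (7.79% to 14.2%) with 8 or more. With the other autosomes' shares in each class of crowding, chromosome 19 would have had a share of 5.54%. For 3 to 4 neighbours the intervals of chromosome 19 and of the other autosomes (4.58% to 6.23%) overlapped, as they did for 5 to 7, with 9.09% (6.34% to 12.5%) and 5.90% (4.87% to 7.07%).

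**Figure D3:**
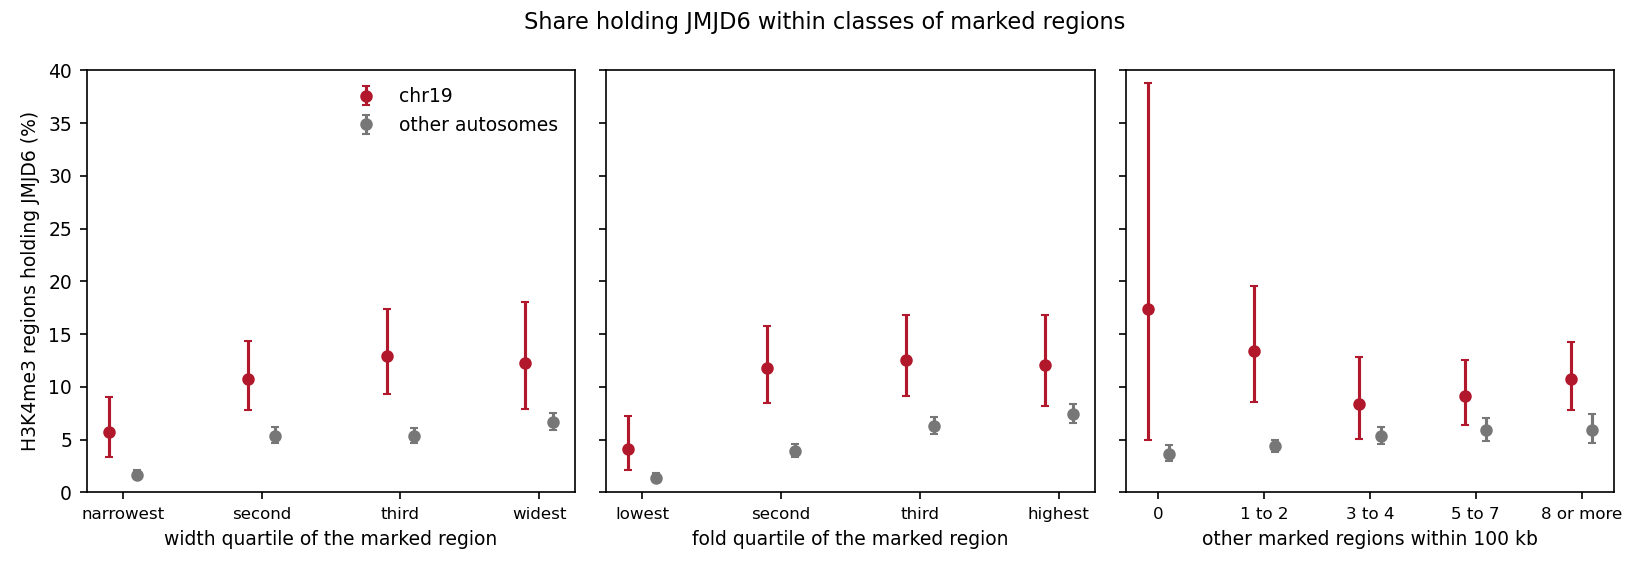
Percentage of H3K4me3 regions that hold JMJD6 on chromosome 19 (red) and on the other autosomes (grey), by quartile of region width, by quartile of H3K4me3 fold and by the number of other marked regions within 100 kb. Bars are exact 95% intervals. The red point lies above the grey one in every class, and the class with no neighbour rests on 23 regions of chromosome 19.

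Along the chromosome, the mark was divided about equally between the sides of the longest stretch without any peak, and JMJD6 was not. That stretch ran from position 24271147 to 28282403, 4.01 Mb. On the side before it, nearer the first base, lay 571 H3K4me3 regions, and 578 lay on the side after it, 50.3% of the total. JMJD6 had 44 regions before the stretch and 105 after it, 70.5%. The share of marked regions holding JMJD6 was 6.83% before (4.90% to 9.22%) and 13.7% after (10.97% to 16.7%). In libraries 1 to 4 it was 6.83%, 8.23%, 5.78% and 6.83% before, and 11.9%, 13.8%, 12.3% and 15.1% after. Each library had the higher share after the stretch, and the ranges did not overlap. The difference was 6.36 ± 1.37 percentage points (SD, n = 4; exact sign-flip permutation p = 0.13), and this division of the chromosome was chosen after the values were seen. The marked regions themselves had a median width of 1633 bp before and 1656.5 bp after, and a median fold of 64.3 before and 54.2 after.

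In windows of 1 Mb, JMJD6 regions gathered in a few places. Of 60 windows 57 held an H3K4me3 region and 44 a JMJD6 region. The 11 windows with at least 5 JMJD6 regions held 82 of the 149, and 10 of these windows lay after the stretch. They were picked by their JMJD6 count and held from 17 to 39 H3K4me3 regions each. The chromosome had 19.5 H3K4me3 regions per Mb, and the share of its H3K4me3 regions in these windows was not counted. Of the 21 autosomal windows with at least 5 JMJD6 regions, these 11 lay on chromosome 19. The counts of the 2 marks per window had a Spearman rho of 0.675, as a description over 60 windows of the same libraries. The window from 49 to 50 Mb held 17 JMJD6 regions beside 34 H3K4me3 regions, the most JMJD6 regions of any autosomal window; the highest on another autosome, on chromosome 6, held 13. The windows from 44 to 45 Mb and from 45 to 46 Mb followed with 9 JMJD6 regions each, beside 28 and 39 H3K4me3 regions. They differed in kind. All 9 of the first lay on the mark, overlapping 10 marked regions, and their median fold was 6.72 with a maximum of 12.1. Of the 9 in the next window 3 lay off the mark, and the median fold was 24.9 with a maximum of 58.3. Libraries 1 to 4 had 5, 8, 7 and 11 peaks in the window from 44 to 45 Mb, and 8, 9, 8 and 9 in the next. Most of the 9 regions of the former lacked a peak in at least 1 library.

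Of the 60 windows, 13 held H3K4me3 and no JMJD6 region, and the 3 with the most H3K4me3 among them are given here. The window from 53 to 54 Mb had 28 H3K4me3 regions with a median width of 1794.5 bp and a median fold of 50.5, and its only JMJD6 peaks were 2 of library 3. The window from 8 to 9 Mb had 17 H3K4me3 regions and a single JMJD6 peak, in library 2. The window from 33 to 34 Mb had 10 H3K4me3 regions, with a median width of 2112.5 bp and a median fold of 78.7, and no JMJD6 peak in the 4 lists. The window from 1 to 2 Mb, with 56 H3K4me3 regions the fullest of the chromosome, held 3 JMJD6 regions.

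**Figure D4:**
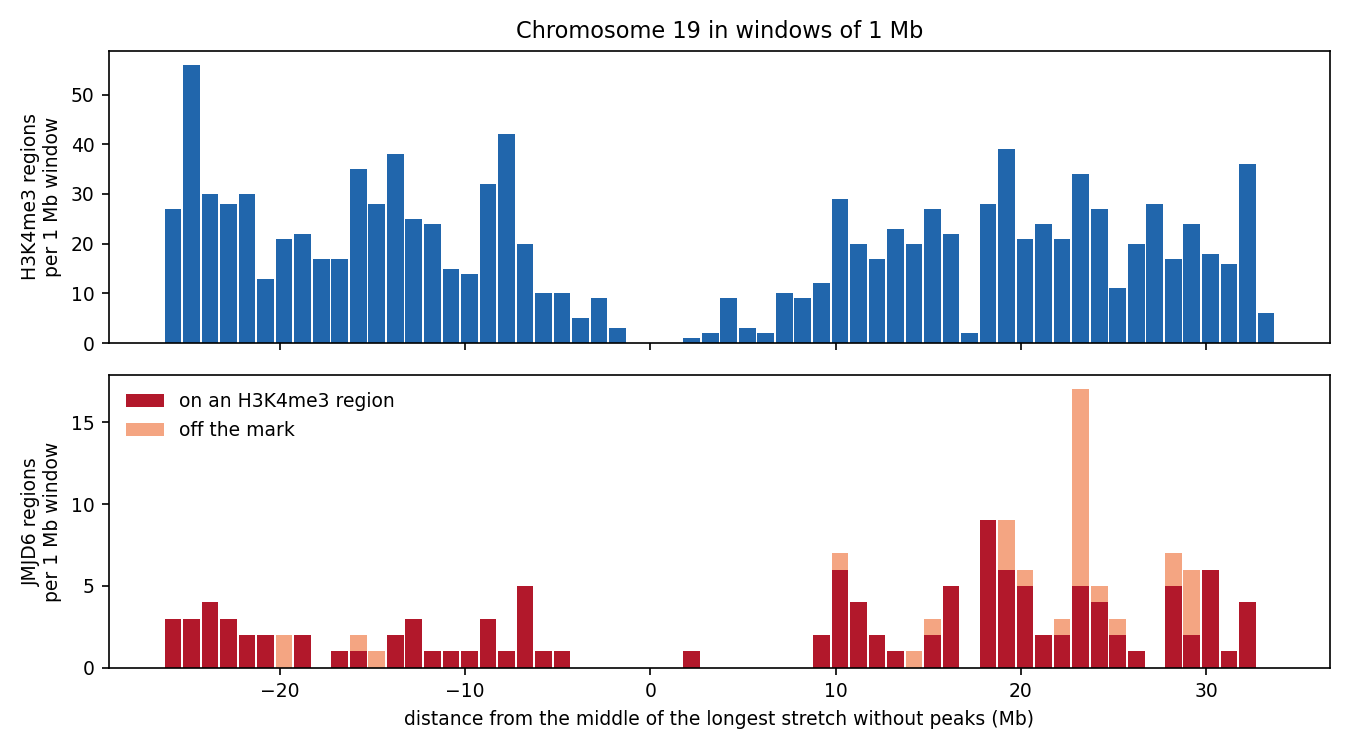
H3K4me3 regions (top) and JMJD6 regions (bottom) of chromosome 19 per window of 1 Mb, by the distance of the window from the middle of the longest stretch without peaks. JMJD6 regions on the mark are dark red and those off it pale. H3K4me3 fills both sides, with 571 and 578 regions, while 105 of the 149 JMJD6 regions are on the right; the tallest bar has 17, of which 12 are off the mark.

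The densest gathering of JMJD6 on chromosome 19 lay mostly between marked regions and not on them. Within 500 kb at most, the densest run of JMJD6 regions spanned chr19:48922522-49416770, 494 kb, with 16 regions, 13 of them off H3K4me3 and 14 with a peak in all 4 libraries. The densest such run on another autosome, chromosome 6, had 13. The run held 15, 17, 16 and 17 peaks in libraries 1 to 4. It contained 17 H3K4me3 regions, 3 of which held JMJD6, with a median width of 1178 bp and a median fold of 28.6. The mean JMJD6 folds of the run went from 7.86 to 34.3, with a median of 15.0. Its highest region, chr19:49163953-49164828, had folds of 37.6, 41.7, 27.9 and 29.8 in libraries 1 to 4, lay 14.01 kb from the nearest H3K4me3 region, and at 876 bp was the widest JMJD6 region of the chromosome. The region chr19:49077784-49078444 had 38.1 and 41.7 in batch 1 and 23.4 and 17.5 in batch 2, and its nearest marked region was 42.0 kb away. At chr19:49148011-49148454, with folds of 26.2, 34.8, 29.7 and 26.6, JMJD6 ended 96 bp before a marked region of 1390 bp. The region chr19:49298550-49299039 was on the mark, with JMJD6 folds of 22.9, 25.9, 29.0 and 25.9 over an H3K4me3 region of 450 bp whose own folds were 7.90 and 6.22. The pair chr19:49248419-49248878 and chr19:49250349-49250692 had mean folds of 14.7 and 10.4 and lay 5.54 and 7.47 kb from the mark. A region with a peak in 3 libraries only, chr19:49385042-49385302, had the lowest mean fold of the run, 7.86. The number of copies of this stretch in the cells was not measured here.

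**Figure D5:**
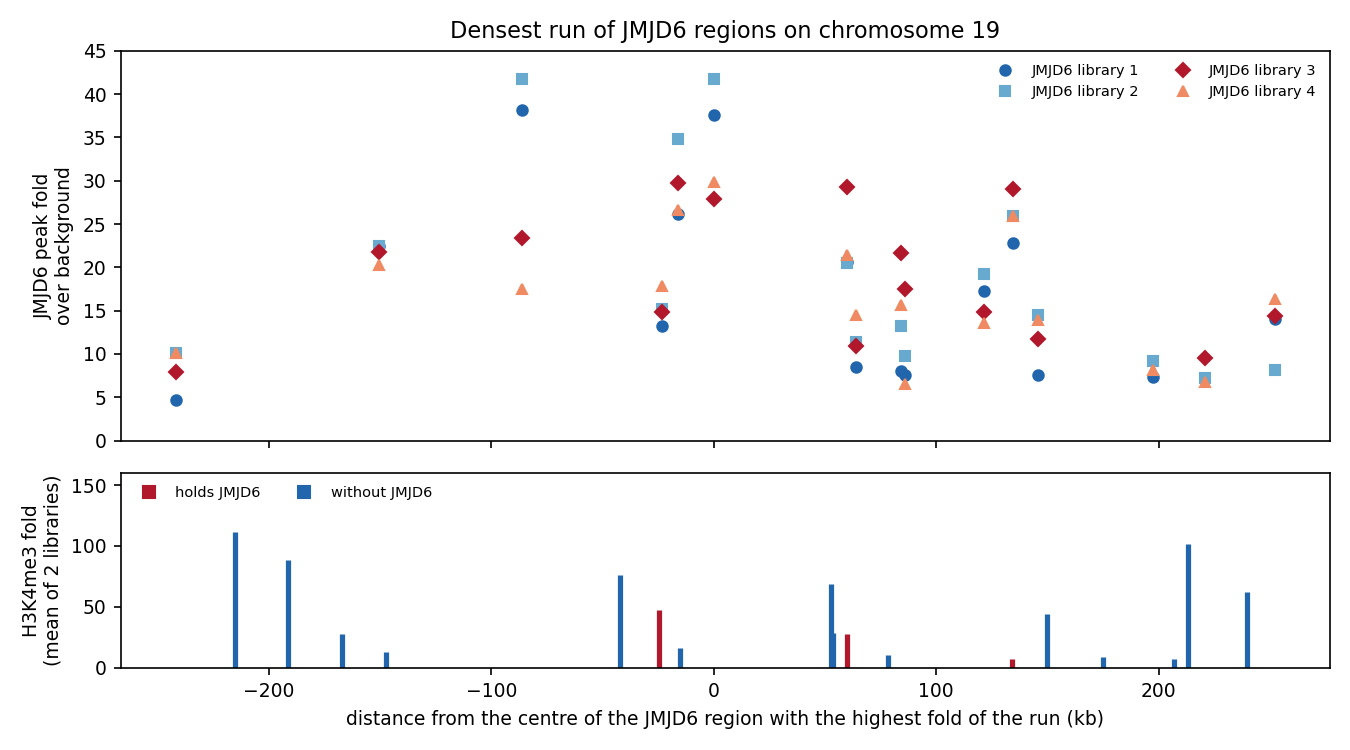
The 16 JMJD6 regions of the densest run of chromosome 19 with their fold in each of the 4 libraries (top), and the H3K4me3 regions of the same stretch as lines at their centres with the mean fold of both libraries (bottom), by distance in kb from the JMJD6 region with the highest fold. Only 3 of the 17 marked regions hold JMJD6 (red), and the highest JMJD6 folds, 41.7 in library 2, stand between them.

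The strongest JMJD6 regions of chromosome 19 lay on marks of low and of higher fold, and off the mark. Of the 10 regions with the highest mean fold, 8 lay after the peak-free stretch and 7 on the mark, 3 of these on a marked region with a mean fold under 20. Over all 149 JMJD6 regions of the chromosome 70.5% lay after the stretch and 78.5% on the mark. The counts by side and by mark thus do not set the 10 apart. The share on marks with a mean fold under 20 was not counted over all 149. A near count is by marked region. Of the 118 marked regions of chromosome 19 holding JMJD6, 11 were in the lowest quartile of H3K4me3 fold, under 19.1. The first of the 10, chr19:56028266-56028801, had JMJD6 folds of 70.0, 49.4, 72.9 and 79.4 in libraries 1 to 4, on an H3K4me3 region of 414 bp with folds of 13.4 and 14.3. Shortly before it, chr19:56014981-56015699 had 56.4, 26.3, 40.7 and 53.9, on an H3K4me3 region of 388 bp with folds of 11.8 and 9.01. The third with a weak mark was chr19:18215068-18215767, with JMJD6 folds of 52.0, 48.1, 23.6 and 41.8 and H3K4me3 folds of 8.45 and 9.34 over 561 bp.

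The other 4 of the 10 on the mark had H3K4me3 folds from 30.4 to 139, beside a median of 57.9 over all marked regions of the chromosome. The second highest, chr19:41283149-41283843, had JMJD6 folds of 56.7, 68.3, 43.3 and 69.0 on a marked region of 2069 bp with folds of 48.9 and 39.8. At chr19:36103269-36103908 the JMJD6 folds were 63.0, 43.0, 52.1 and 77.0, and those of H3K4me3 were 50.6 and 87.8. At chr19:50934654-50935327 there were JMJD6 folds of 61.6, 63.6, 45.7 and 60.2, over H3K4me3 folds of 30.4 and 32.4. The region on the strongest mark, chr19:4791241-4791921, had JMJD6 folds of 46.4, 48.3, 25.03 and 66.5 and H3K4me3 folds of 97.2 and 139.

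Over all 117 JMJD6 regions on the mark, the 19 with a mean JMJD6 fold of at least 20 had a median H3K4me3 fold of 35.9 and a median width of 1165 bp, and the 98 below 20 had 67.9 and 2094.5 bp. Elsewhere the medians were 79.9 above that limit and 78.7 below it, in 100 and 583 regions, so no such step was present there. The limit of 20 was chosen after the values were seen, and the difference between chromosome 19 and the other autosomes in this respect was not tested. Without a limit the relation was weak. On chromosome 19 the JMJD6 fold had a Spearman rho of −0.195 with H3K4me3 fold and −0.116 with H3K4me3 width. Elsewhere these were −0.0526 and −0.0240.

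JMJD6 regions off the mark numbered 32 on chromosome 19, with 4 before the peak-free stretch and 28 after it, and 12 of the 32 in the window from 49 to 50 Mb. Their distance to the nearest marked region had a median of 9.31 kb, against 33.6 kb for the 172 such regions elsewhere, and 17 of 32 were within 10 kb of a marked region, against 39 of 172. Marked regions stand closer together on chromosome 19, and the part this plays in the shorter distance was not tested. A region of 1 H3K4me3 library only lay under 1 of the 32. The strongest, chr19:51182514-51183134, had JMJD6 folds of 55.3, 68.0, 39.4 and 71.7 and lay 22.2 kb from the mark. A neighbouring pair followed: chr19:45430144-45430895, with 43.1, 66.7, 49.1 and 74.2, was 26.4 kb from the mark, and chr19:45418053-45418797, with 42.8, 44.9, 36.2 and 41.7, was 21.9 kb from it.

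On chromosome 19 the JMJD6 peaks on and off the mark did not differ in fold in a common direction. The median fold on and off the mark was 11.1 and 8.85 in library 1, 9.96 and 12.3 in library 2, 12.1 and 11.8 in library 3, and 11.1 and 13.7 in library 4. The sign differed between libraries, and the mean difference was −0.641 (exact sign-flip permutation p = 0.625). On the other autosomes the regions on the mark had the higher median fold in 4 of 4 libraries, by a mean of 0.979 (exact sign-flip permutation p = 0.13).

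Where JMJD6 met the mark, its summits lay nearer the middle of the marked region, relative to the region's length, on chromosome 19 than elsewhere. In libraries 1 to 4 the JMJD6 summit was inside the H3K4me3 region in 86 of 97, 100 of 112, 86 of 96 and 100 of 113 regions of chromosome 19, from 88.5% to 89.6%, where the other autosomes had from 89.98% to 91.9%. It lay at a median of 357.5, 355, 356.75 and 352.5 bp from the H3K4me3 summit. Elsewhere these distances were 386.5, 385.5, 374 and 382.5 bp. Of the summits inside, 68.6%, 68.0%, 66.3% and 71.0% fell in the inner 50% of the marked region's length on chromosome 19, and from 59.1% to 59.4% elsewhere. The chromosome 19 value was the higher in each library. The median distance from the summit to the edge of the marked region had no common direction. In libraries 1 to 4 it was 634.5, 601, 626.5 and 655.5 bp on chromosome 19, against 617, 620, 629.5 and 614.5 bp elsewhere. Marked regions are narrower on chromosome 19, and the part of their width in these distances was not tested.

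Most of the widest and strongest promoter marks of the chromosome had no JMJD6 peak, as most marked regions did. In the widest quartile 12.3% and in the highest quartile of fold 12.0% held JMJD6, so the 0 of 5 among the widest regions, named here as examples, does not set these apart. The widest, chr19:47729495-47736267 with 6773 bp and folds of 119 and 103, had no JMJD6 peak in any library. The next, chr19:1247936-1253939 with 6004 bp and folds of 81.2 and 47.3, had none either. Only the third, chr19:12899678-12905213 with 5536 bp, touched a JMJD6 region, which did not have peaks in both batches. The strongest mark without any JMJD6 peak was chr19:18630725-18633098, with H3K4me3 folds of 143 and 162, followed by chr19:2149653-2151698 with 148 and 139 and chr19:19773365-19775687 with 126 and 150. All 3 lay before the peak-free stretch, as did 571 of the 1149 marked regions. The median fold was 64.3 before it and 54.2 after it, so 3 examples picked by fold do not set the sides apart. With peaks of any library counted, 159 of the 1149 marked regions of chromosome 19 touched JMJD6 (13.8%, 11.9% to 15.97%), against 6.99% (6.58% to 7.41%) on the other autosomes.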

How the data were processed

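ChIP-seq peak lists of 4 JMJD6 and 2 H3K4me3 libraries of 786-O cells were used. Per the submitters' processing notes the tools include MACS2 2.1.2 and bedtools 2.26 and the builds hg19 and GRCh37, without their roles; read alignment, duplicates and the use of inputs are not given in the sources used here. The deposited lists give per peak, in the narrowPeak layout, a fold enrichment ratio over the peak caller's background and the −log10 p-value and q-value. The lowest deposited −log10 q-value was 1.30. Peaks were called per library.

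Peaks of a mark that overlapped or touched were merged into regions with Python 3.11.15 (numpy 2.4.6, scipy 1.17.1); coordinates are hg19, counted from 1. Overlap required 1 bp. A region's fold in a library is that of its highest peak, and its mean fold is over the libraries with a peak. A window of 1 Mb takes regions by their start. Shares and medians were computed per library and compared between chromosome 19 and the other 21 autosomes by exact sign-flip permutation over the 4 libraries, 2-sided, without adjustment. Merging, overlap and this test were tested on simulated data.

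Named regions were the 10 JMJD6 regions of highest mean fold, 5 off the mark, the 5 widest H3K4me3 regions, the 3 widest and 3 strongest without JMJD6, and 3 windows of each kind; regions of the densest run were named after their values were seen. Crowding classes, the sides of the peak-free stretch, the densest run and the JMJD6 fold limits were likewise chosen afterwards. The region sets were chosen with earlier results of these data known. Inputs and RNA tables were not used here.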

Additional observations from a re-analysis of the deposited data

Results flagged for a closer look

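In 36 groups of 4 JMJD6 libraries, 25 of them named regions, the gap of the highest or the lowest library to its neighbour was compared with the group's range. In 1 group this gap was large. At chr19:49223789-49224578, a region on the mark within the densest run, library 3 had a JMJD6 fold of 29.2, and libraries 1, 2 and 4 had 20.6, 20.6 and 21.4. Chance flags about 1 in 20 groups. Each fold is relative to the background of its own peak list.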

How the results depend on the processing

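With peaks of a −log10 q of at least 10, the differences of chromosome 19 from the other autosomes were 4.40 percentage points in marked regions holding JMJD6, −7.55 points in JMJD6 regions on the mark, 1.21 in fold and 9.75 bp in width, and the ratios of regions per Mb were 9.13 for JMJD6 and 3.75 for H3K4me3. With JMJD6 regions of all 4 libraries the first 2 were 4.06 and −6.18 points and the JMJD6 ratio 8.74. With regions of both batch 1 libraries the share holding JMJD6 differed by 4.55 points and the 2 sides of the peak-free stretch by 5.47, where the main value was 6.84. With batch 2 the first 2 differences were 4.67 and −6.65 points and the JMJD6 ratio 8.90. Against chromosomes 17, 22 and 16 the share holding JMJD6 differed by 4.52 points, with ratios of 3.72 and 1.94. An alternative chosen after seeing the data left out the window from 49 to 50 Mb of chromosome 19 and no window elsewhere. The JMJD6 regions on the mark then turned to 4.97 points, the fold difference was 1.16 and the ratios were 7.26 and 3.62. With H3K4me3 regions of either library, also added later, the share holding JMJD6 differed by 5.06 points and the H3K4me3 ratio was 3.53, and with peaks within 500 bp merged that ratio was 3.59. Leaving out 1 library at a time gave 4.54 to 5.49 points in marked regions holding JMJD6, −5.80 to −0.688 points in JMJD6 regions on the mark, 1.54 to 1.69 in fold, 21.3 to 32.2 bp in width, 8.10 to 8.48 for the JMJD6 ratio and 3.51 to 3.57 for the H3K4me3 ratio. Except for the share of JMJD6 regions on the mark without that window, no difference turned in direction under the alternatives run. The other 40 values moved by no more than the SD between libraries. Overlap and merging do not enter fold and width, which were taken per peak.

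No paired analysis was possible because the numbers shared between groups join a JMJD6 with an H3K4me3 library, 2 antibodies that were not compared as groups; the sign-flip test itself uses differences within a library. The lists do not show signal below the peak threshold, so a region without a peak is not shown to lack JMJD6, and the depth of the libraries is unknown. With 4 libraries the smallest p is 0.13. JMJD6 libraries 3 and 4 share their sequencing batch with both H3K4me3 libraries. Tests of fold used differences within a list, and folds of several libraries stand side by side as a description, each relative to the background of its own list.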

Other observations

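JMJD6 regions of chromosome 19 stood close to each other. The median gap to the nearest JMJD6 region was 71.5 kb, against 441 kb on the other autosomes, and 26 of 149 had another within 10 kb (17.4%), against 43 of 855 (5.03%). For H3K4me3 regions the median gaps were 10.8 kb and 26.1 kb. Counted in order along the mark, which leaves distance out, the next marked region after one holding JMJD6 also held it in 24 of 118 cases on chromosome 19 (20.3%, 13.5% to 28.7%). After a marked region without JMJD6 this was 94 of 1030 (9.13%, 7.44% to 11.1%). Elsewhere the shares were 9.12% (7.08% to 11.5%) and 4.56% (4.22% to 4.92%). A JMJD6 region that spans the gap between neighbouring marked regions counts for both, and raises the share after a marked region holding JMJD6. The 118 marked regions of chromosome 19, 5 of them with a pair, met 117 JMJD6 regions. Elsewhere 692 marked regions, 8 of them with a pair, met 683. Such spanning regions are thus among the cases counted in both parts. These are descriptions over regions, with no test.

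JMJD6 regions of chromosome 19 were found in both batches more often than those elsewhere: 149 of 212 regions of any library (70.3%, 63.6% to 76.3%), against 855 of 1442 (59.3%, 56.7% to 61.8%). Regions seen in batch 1 alone were 16.98% of those of chromosome 19 and 26.2% elsewhere, and regions of batch 2 alone were 12.7% and 14.5%.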
